A study of Mus musculus with 20 samples.

Results

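The genes that write, copy, erase and protect DNA methylation were followed in mouse ovaries lacking 1 of 2 oocyte transcription factors, Figla or Lhx8. The 10 genes were taken by name from the 49585 genes counted in each library: Dnmt1 and Uhrf1, which copy methylation at replication, Dnmt3a, Dnmt3b and Dnmt3l of the de novo machinery, the oxidases Tet1, Tet2 and Tet3, and the imprint keepers Zfp57 and Trim28. All 10 symbols were found. RNA-seq counts came from whole ovaries of B6D2F1 mice, in 20 libraries. Figla-null and control ovaries were taken at embryonic day 18.5 (E18.5, 4 libraries of each) and at postnatal day 0 (P0, 3 of each), and Lhx8-null and control ovaries at P0 (3 of each). The genotype field gives the controls as Figla+/- or Lhx8+/-, while the Lhx8 library names call them WT, so they are called controls here. The labels do not state whether ovaries of several animals were pooled, so part of the spread behind each p-value may be technical.

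Total counts per library ranged from 5583392 to 13408022 in the Figla set, made from whole transcripts, and from 8297204 to 9978350 in the Lhx8 set, which reads the 3' end of each transcript. Title and library name disagreed on genotype for 6 of 14 Figla and 6 of 6 Lhx8 libraries, and the library name was used. Figla was below 2 CPM (a gene's share of the scaled library size) in all Figla libraries named as knockouts and at 21.9 or more in those named as controls, other than E18.5 control 3. That library, the shallowest and 1 of those whose title names a knockout, held Figla at 3.78 and Nobox, another oocyte factor, at 2.06 CPM. Lhx8 stood at 90.4 to 103 CPM in the controls of its set and 17.0 to 30.5 in the knockouts, but the labels do not give the deleted stretch, so a 3' count may not check them. At E18.5, control libraries 1 and 2 and knockout libraries 1 and 2 were near-identical pairs. Each pair was summed and counted as 1 sample, written 1-2, which left 3 samples per group. Samples 1-2 of both genotypes stood apart from samples 3 and 4: the root mean square log2 difference over genes was 0.49 between the samples 1-2, 0.49 to 0.69 among samples 3 and 4, and 0.55 to 0.80 across these sets.

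In mammals, methyl groups are placed on cytosines of CG pairs by Dnmt3a and Dnmt3b, helped in germ cells by the inactive relative Dnmt3l. At each replication Uhrf1 recognises the half-methylated daughter strands and brings Dnmt1 to them. Tet enzymes oxidise the methyl group, which starts its removal. Around birth the genome of mouse oocytes is poor in methylation, and maternal imprints are set later, as oocytes grow. After fertilisation Zfp57, a KRAB zinc finger protein, binds methylated imprint control regions and calls in the corepressor Trim28.

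At birth, Zfp57, Uhrf1 and Dnmt1 were lower in Figla-null ovaries than in controls. Because each of these genes has more than 1 annotated start, the upstream sequences are shown first. RefSeq (GRCm38.p6) listed 19 start sites for the 10 genes, at least 1 for each, and the 250 bases before each start were read. Printed 5' to 3' on the gene's strand, with CANNTG in capitals (the E-box, the class of site that basic helix-loop-helix factors such as Figla bind), 5 of the 8 windows of these 3 genes are, for Dnmt1 (minus strand) at the farthest upstream start, chr9:20959889-20960138, and at the CG-rich start, chr9:20952624-20952873, for Uhrf1 (plus strand) at chr17:56304063-56304312, and for Zfp57 (plus strand) at chr17:37000913-37001162 and chr17:37002275-37002524:
Dnmt1 upstream start: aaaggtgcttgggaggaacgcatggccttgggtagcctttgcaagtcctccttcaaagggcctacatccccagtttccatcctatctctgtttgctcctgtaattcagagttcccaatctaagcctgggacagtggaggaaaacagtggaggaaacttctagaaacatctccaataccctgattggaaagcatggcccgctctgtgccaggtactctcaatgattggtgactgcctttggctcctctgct
Dnmt1 CG-rich start: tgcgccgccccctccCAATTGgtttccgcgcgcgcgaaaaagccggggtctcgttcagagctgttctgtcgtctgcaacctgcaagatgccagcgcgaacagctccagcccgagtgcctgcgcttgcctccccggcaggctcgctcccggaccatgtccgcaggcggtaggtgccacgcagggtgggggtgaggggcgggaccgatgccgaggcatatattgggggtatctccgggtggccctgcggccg
Uhrf1: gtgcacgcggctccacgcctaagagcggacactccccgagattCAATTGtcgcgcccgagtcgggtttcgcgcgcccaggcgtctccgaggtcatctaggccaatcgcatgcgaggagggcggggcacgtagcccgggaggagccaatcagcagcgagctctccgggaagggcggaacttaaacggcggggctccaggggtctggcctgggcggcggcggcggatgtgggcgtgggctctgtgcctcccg
Zfp57 first start: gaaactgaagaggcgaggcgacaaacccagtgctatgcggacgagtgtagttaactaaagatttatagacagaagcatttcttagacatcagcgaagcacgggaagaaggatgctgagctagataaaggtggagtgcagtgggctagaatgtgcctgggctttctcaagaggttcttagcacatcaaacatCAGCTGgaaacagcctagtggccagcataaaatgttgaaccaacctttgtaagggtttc
Zfp57 inner start: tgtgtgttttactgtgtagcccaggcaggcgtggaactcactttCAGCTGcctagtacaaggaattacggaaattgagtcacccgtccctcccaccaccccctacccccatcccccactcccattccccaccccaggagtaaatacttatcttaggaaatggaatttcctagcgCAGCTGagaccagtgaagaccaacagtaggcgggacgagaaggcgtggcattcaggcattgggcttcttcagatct

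The printed Dnmt1 windows held 2 and 26 CG pairs, and the printed Uhrf1 window held 30. The printed Zfp57 windows held 6 and 7. Of the 3 windows not printed, the Dnmt1 one held 7 CG pairs and 2 E-boxes, the Uhrf1 one 10 and 1, and the Zfp57 one 3 and 0. These CG counts stand against a median of 6 over all 32851 RefSeq windows of the same length. An E-box occurred in 12 of the 19 windows, against 66.2% of all windows. The letters TAATTA and TAATTG, which many homeodomain proteins bind, were searched on both strands and occurred in 0 of the 19, against 4.84% and 7.17% of all windows. A match is a description of the sequence only. The counts sum all starts of a gene, so the values that follow cannot be divided among them.

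Per kilobase of exon, the 10 genes spanned a wide range of levels. In P0 controls of the Figla set Trim28 was the most abundant at 135 ± 7.18 CPM per kilobase (SD, n = 3). Uhrf1 followed at 51.9 ± 13.5 and Dnmt1 at 36.2 ± 3.05, with no overlap between neighbours. Zfp57 (22.6 ± 4.66), Dnmt3a (18.4 ± 4.83) and Tet3 (16.2 ± 0.40) formed a middle group in which each overlapped the next. Tet2 stood at 6.67 ± 1.24, Dnmt3b at 4.42 ± 0.62 and Tet1 at 3.18 ± 0.48, each apart from its neighbours. Dnmt3l was near 0 at 0.011 ± 0.018. In Figla-null ovaries at P0, Zfp57 dropped from the fourth to the sixth place on this per-length scale, below Dnmt3a and Tet3 and overlapping neither, whereas in controls its mean lay above both and its samples overlapped those of Dnmt3a. The Lhx8 libraries count 3' ends, so their values are not levels per length and no order is given.

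**Figure D1:**
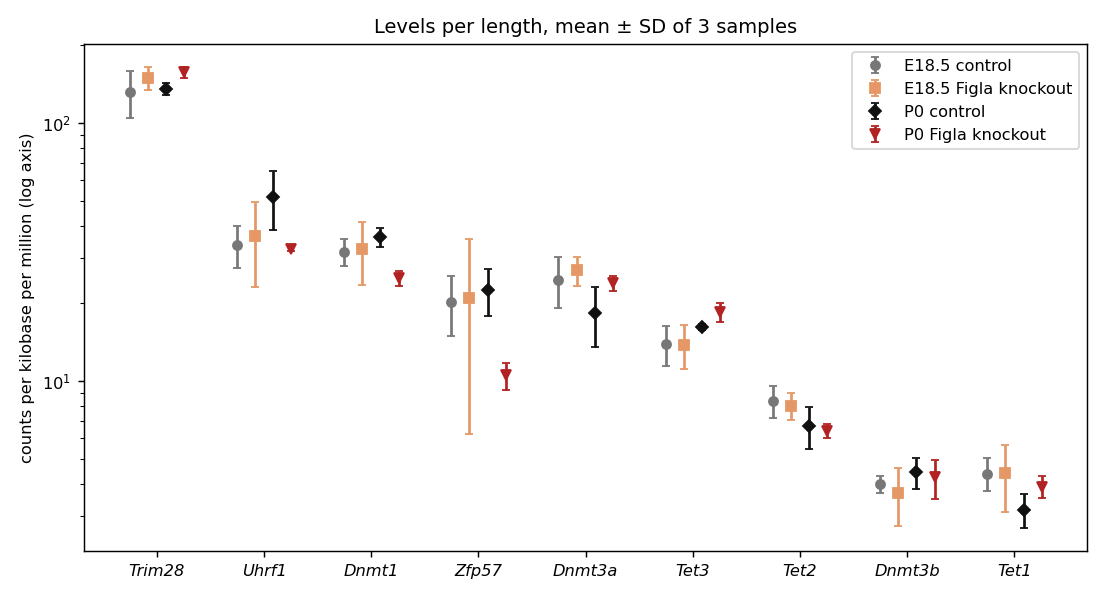
Level per exon length of 9 of the 10 genes in the 4 Figla-set groups (log axis, CPM per kilobase; points are means and bars SD of 3 samples). Trim28 is highest in each group, and the P0 knockout point of Zfp57 lies at 10.5 below the control point at 22.6. Dnmt3l, at 0.011 to 0.039, is not drawn.

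Of the 9 genes with enough counts to test, 3 were lower and 0 higher in Figla-null than in control ovaries at P0, against 10.9% lower and 5.12% higher of all 17321 genes tested (edgeR's quasi-likelihood test, Benjamini-Hochberg adjusted p under 0.05, which called 16% of them in either direction). Their median log2 fold change was -0.05, beside 0.02 over all genes. In Lhx8-null ovaries 2 were lower and 1 higher, against 7.29% and 3.06% of 15274 genes (10.4% in either direction), with a median of 0.02 beside 0.05. At E18.5 none of the 9 passed, in a comparison that called 0.0062% of 16131 genes, a single gene (607 at an unadjusted p under 0.05). None of the 9 had an unadjusted p under 0.05 there, and DESeq2 also called 0 of them. Without E18.5 control 3, the library low in Figla, the comparison called 89 genes and still 0 of the 9. Groups did not overlap for 5 of the 9 in the Figla set and 4 of the 9 in the Lhx8 set at P0, against 35.6% and 33.7% of all genes. At E18.5 the groups overlapped for all 9, while 7.45% of all genes did not overlap.

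Dnmt1 (ENSMUSG00000004099, GRCm38 chromosome 9, 20907209 to 20959888), the maintenance methyltransferase, was lower at P0 in Figla-null and in Lhx8-null ovaries than in their controls. Figla-set samples at P0 stood at 244, 267 and 289 CPM in controls and at 171, 192 and 192 in knockouts. All 3 knockouts lay below all 3 controls. Means were 267 ± 22.5 and 185 ± 11.9 (SD, n = 3 each), a log2 fold change of -0.53 (SE 0.10, edgeR adjusted p = 0.00592). Lhx8-set controls stood at 145, 131 and 110 CPM and knockouts at 84.0, 91.2 and 90.6, again without overlap. This was a log2 fold change of -0.54 (SE 0.14, edgeR adjusted p = 0.0372).

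At E18.5 Dnmt1 stood at 236, 206 and 261 CPM in controls and at 166, 261 and 293 in Figla-null samples 1-2, 3 and 4. The knockouts lay on both sides of the controls. The log2 fold change was 0.05 (SE 0.22, 95% interval -0.46 to 0.56), and the spread of the knockouts, 66.0 CPM, was wider than the difference between the means. Within the samples 1-2 the knockout was 0.51 lower on the log2 scale, whereas within samples 3 and 4 it was 0.25 higher. The change of the Figla effect from E18.5 to P0 was -0.56 (SE 0.25, edgeR adjusted p = 0.913), so a difference between the ages was not shown. That contrast called 0 of all 18379 genes tested. At an unadjusted p under 0.05 by edgeR it held 977 of them and 3 of the 9 genes.

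Uhrf1 (ENSMUSG00000001228, chromosome 17, 56303321 to 56323486), the factor that brings Dnmt1 to replicated DNA, was lower at P0 in Figla-null ovaries. Controls stood at 180, 196 and 286 CPM, and the 3 knockouts lay close together at 136, 140 and 142, below every control. Uhrf1's log2 fold change was -0.67 (SE 0.16, edgeR adjusted p = 0.0162). This call rested on 3 knockouts: leaving out knockout 1, 2 or 3 gave adjusted p of 0.0536, 0.0585 and 0.0672 by edgeR. Among Lhx8-set samples, controls stood at 62.9, 111 and 83.9 CPM and knockouts at 58.9, 63.8 and 44.3. One knockout overlapped the lowest control, and the log2 fold change of -0.62 (SE 0.21) did not pass edgeR's test (adjusted p = 0.0903), though it passed by DESeq2 (adjusted p = 0.0442). At E18.5 the controls of the Figla set held 144, 116 and 170 CPM and the knockouts 97.1, 159 and 209. Their log2 fold change was 0.13 (SE 0.28). As for Dnmt1, knockout 1-2 was the lowest of the 6 samples and knockout 4 the highest. The summed level of 8 markers of dividing cells stood in the same samples at 1065, 1188 and 844 CPM in controls 1-2, 3 and 4 and at 745, 1687 and 1946 in knockouts, and the part of these markers in the result was not tested.

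**Figure D2:**
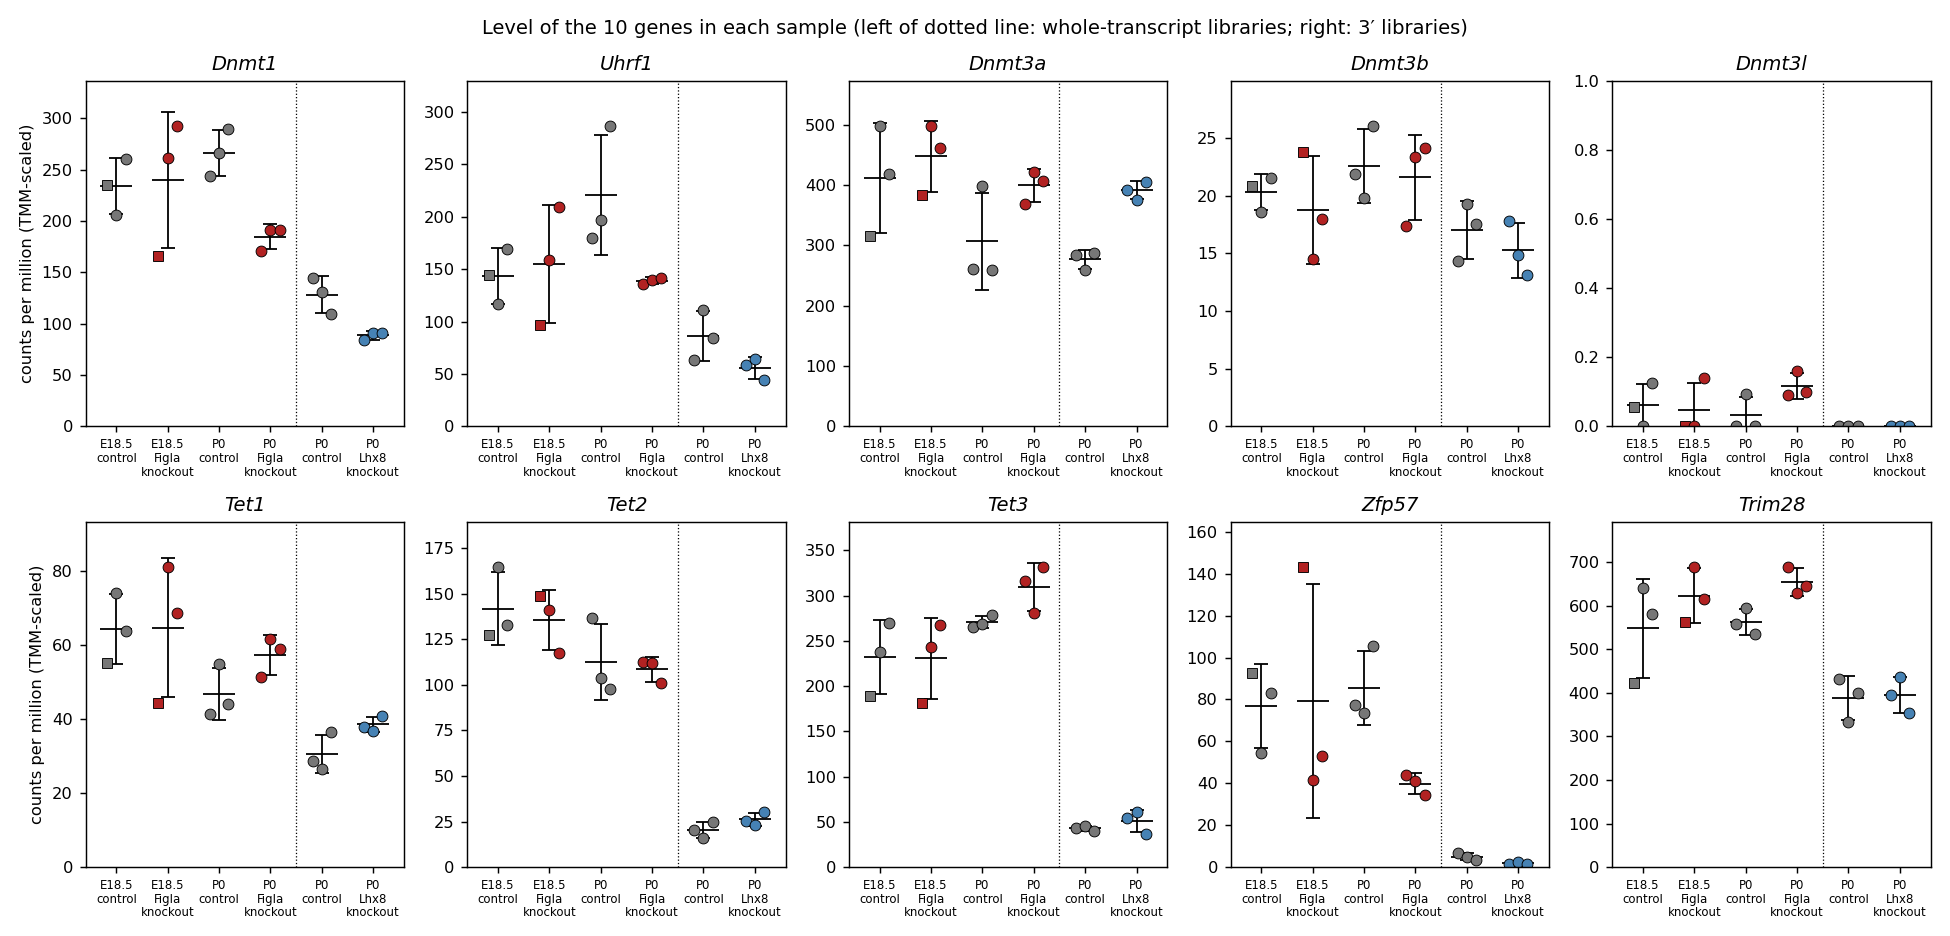
Level of each of the 10 genes in every sample (y axis, CPM; x axis, the 6 groups; points are samples, squares are the summed E18.5 libraries 1-2, and lines are mean ± SD of 3 samples). At P0 the knockout points of Dnmt1 and Zfp57 lie below their own controls in both sets. Levels left and right of the dotted line come from different library kits.

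Dnmt3a (ENSMUSG00000020661, chromosome 12, 3806007 to 3914443), the de novo methyltransferase of oocytes, was higher in Lhx8-null ovaries. Controls stood at 284, 259 and 288 CPM and knockouts at 392, 375 and 405, with every knockout above every control. Its log2 fold change was 0.50 (SE 0.12, edgeR adjusted p = 0.0270). Figla-null knockouts at P0 stood at 369, 422 and 407 CPM. Controls 1 and 3 were lower, at 261 and 259, while control 2 at 399 lay among the knockouts. The log2 fold change of 0.39 (SE 0.16) did not pass edgeR's test (adjusted p = 0.131). With 1 sample left out it ran from 0.28 to 0.61, with edgeR adjusted p from 0.00573 to 0.310. Of these fits only the one without control 2 passed (0.61, adjusted p = 0.00573). With all samples and no filter on low counts Dnmt3a passed as well (0.37, edgeR adjusted p = 0.0230). At E18.5 the log2 fold change was 0.14 (SE 0.21). An antisense gene, Dnmt3aos, shares 133 bases (0.799%) of the Dnmt3a exons, and the counting ignored strand.

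Dnmt3b (ENSMUSG00000027478, chromosome 2, 153649450 to 153687730), the second de novo enzyme, was low. It ranged from 14.5 to 26.0 CPM over the Figla-set samples and from 13.1 to 19.2 in the Lhx8 set. Knockouts and controls overlapped in all 3 comparisons. The log2 fold changes were -0.09 at E18.5 and -0.06 at P0 for Figla and -0.16 for Lhx8, and at P0 the 95% intervals ran from -0.44 to 0.31 and from -0.61 to 0.30. Dnmt3l (ENSMUSG00000000730, chromosome 10, 78041947 to 78063622) had 0 to 2 counts in any sample of the Figla set and 0 in the 6 Lhx8-set samples. A count of 0 there allows up to 0.105 CPM in controls and 0.109 in knockouts (3 counts over the group, counting error only). Dnmt3l was therefore not tested, and no fold is given.

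Tet1 (ENSMUSG00000047146, chromosome 10, 62804570 to 62899118) was not called in any comparison. Its Lhx8-null samples, at 37.9, 36.9 and 40.9 CPM, lay narrowly above the controls at 28.7, 26.5 and 36.4. This gave a log2 fold change of 0.34 (SE 0.16, edgeR adjusted p = 0.204). For Figla at P0 the value was 0.30 (SE 0.14, edgeR adjusted p = 0.165) and the groups overlapped, with control 2 at 54.8 CPM above knockout 1 at 51.3.

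Tet3 (ENSMUSG00000034832, chromosome 6, 83362373 to 83459084), the Tet enzyme known from the oocyte and zygote, had the highest level per length of the 3 oxidases. In the Figla set at P0 its controls stood at 266, 268 and 278 CPM and its knockouts at 316, 281 and 332. The groups did not overlap, but the log2 fold change of 0.20 (SE 0.10) did not pass edgeR's test (adjusted p = 0.202). For Lhx8 it was 0.25 (SE 0.18, edgeR adjusted p = 0.412), with knockout 3 at 37.1 CPM below all controls. Tet2 (ENSMUSG00000040943, chromosome 3, 133463679 to 133545139) had log2 fold changes of -0.05 (SE 0.13) in the Figla set and 0.38 (SE 0.20) in the Lhx8 set at P0, both with overlapping groups, and it shares 43 exonic bases with Gm42567 on the other strand. Tet2 and Tet3 had far lower values in the 3' libraries than in the whole-transcript libraries, with P0 control means of 20.3 against 113 CPM for Tet2 and 42.8 against 271 for Tet3.

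Zfp57 (ENSMUSG00000036036, chromosome 17, 37001163 to 37010635) had the largest change of the 9 tested genes in both P0 comparisons. At P0, Figla-set controls stood at 77.2, 73.5 and 106 CPM and knockouts at 44.0, 41.0 and 34.5. Every knockout was below every control. Means were 85.5 ± 17.6 and 39.8 ± 4.85 CPM, a log2 fold change of -1.10 (SE 0.16, edgeR adjusted p = 0.00100). The Lhx8 set counted the gene sparsely, with 64, 45 and 31 reads in controls and 16, 23 and 12 in knockouts. These gave 4.98 ± 1.61 and 1.80 ± 0.48 CPM without overlap, and a log2 fold change of -1.46 (SE 0.39, 95% interval -2.32 to -0.59, edgeR adjusted p = 0.0407).

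Before birth Zfp57 split by library set. At E18.5 controls 1-2, 3 and 4 stood at 92.8, 54.3 and 83.2 CPM and Figla-null samples at 143, 41.7 and 52.9. The knockout of samples 1-2 was the highest of all 6, and the other knockouts were the lowest. The log2 fold change was 0.07 with an SE of 0.45 (95% interval -0.97 to 1.12). It was 0.63 within samples 1-2, a single sample per genotype, and -0.54 within samples 3 and 4, and without the knockout of samples 1-2 it was -0.69 (edgeR adjusted p = 0.738). The change of the Figla effect with age was -1.16 (SE 0.53, edgeR adjusted p = 0.913).

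Trim28 (ENSMUSG00000005566, chromosome 7, 12999114 to 13031035), which Zfp57 recruits, was abundant in every group. In the Figla set at P0 its controls stood at 558, 594 and 535 CPM and its knockouts at 689, 629 and 646. The groups did not overlap, but the log2 fold change of 0.22 (SE 0.10) did not pass edgeR's test (adjusted p = 0.147). Loss of Lhx8 gave 0.02 (SE 0.14, 95% interval -0.30 to 0.34). At E18.5 it was 0.20 (SE 0.20), the highest of the 9 at that age, with overlapping groups.

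**Figure D3:**
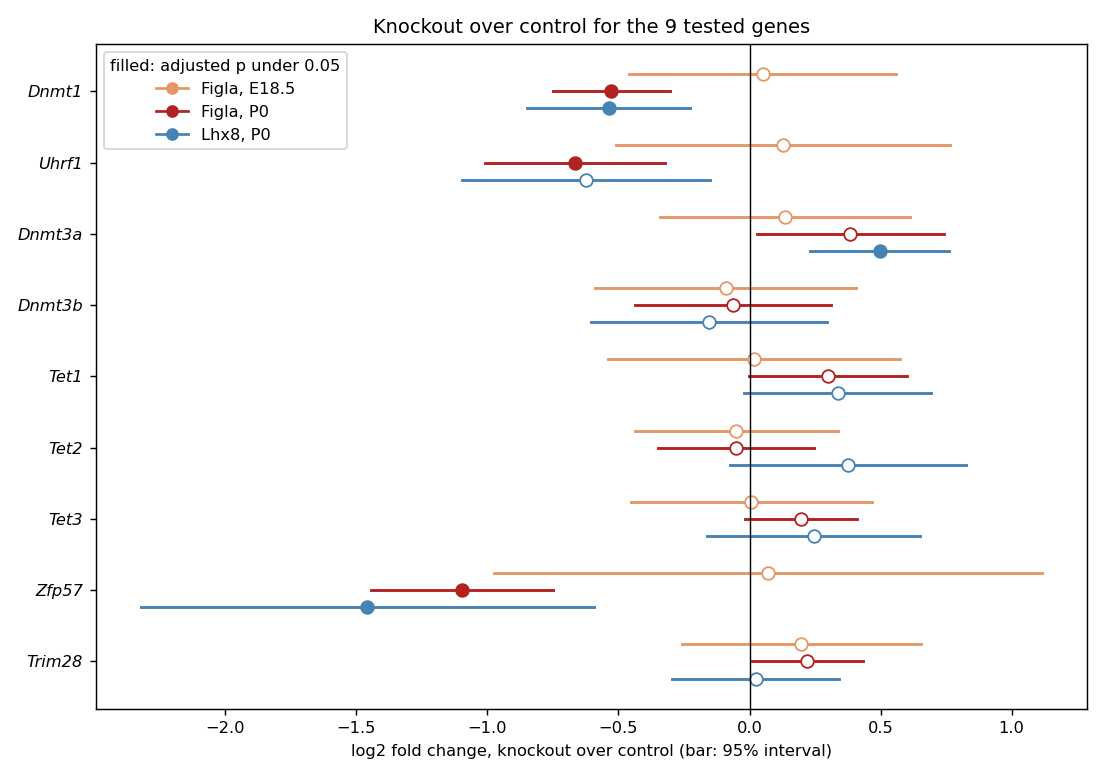
Log2 fold change of knockout over control (x axis) for the 9 tested genes (y axis) in the 3 comparisons, with 95% intervals from edgeR as bars. Filled points passed the adjusted test: Dnmt1, Uhrf1 and Zfp57 for Figla at P0 (-0.53, -0.67 and -1.10), and Dnmt1, Dnmt3a and Zfp57 for Lhx8 (-0.54, 0.50 and -1.46).

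The P0 calls depended on how the samples were modelled. Fitted in 1 model with the E18.5 samples, the Figla log2 fold changes at P0 were -0.53, -0.67 and -1.10 for Dnmt1, Uhrf1 and Zfp57, but the adjusted p by edgeR rose to 0.10, 0.131 and 0.101 and 0 of the 9 passed. In the P0 fits of the Figla set alone, Dnmt1 and Zfp57 kept their calls with any 1 sample left out (edgeR adjusted p of at most 0.0367 and 0.00879). Uhrf1 did not, as given above. In the Lhx8 set no gene of the 9 kept its call in all fits that left out 1 sample. Dnmt1 kept it only without control 3 (edgeR adjusted p = 0.0418) and had adjusted p of 0.0589 to 0.153 without any other sample. Dnmt3a kept it only without knockout 1 (adjusted p = 0.0233, otherwise 0.0561 to 0.136), and Zfp57 only without knockout 2 (adjusted p = 0.0470, otherwise 0.0517 to 0.173). The signs were the same in all of these fits. Every Lhx8 sign, however, turns if the libraries are grouped by title.

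Between E18.5 and P0 none of the 9 genes was called in controls or in knockouts. In the Figla-set controls Uhrf1 was higher in all 3 P0 samples than in any E18.5 sample, with a log2 fold change of 0.62 (SE 0.25, edgeR adjusted p = 0.162), and Tet1 was lower in all 3, at -0.46 (SE 0.20, edgeR adjusted p = 0.203). In knockouts Zfp57 had the largest value, -1.01 (SE 0.38, edgeR adjusted p = 0.310), with the E18.5 sample 1-2 at 143 CPM, and samples 3 and 4 at 41.7 and 52.9, against 34.5 to 44.0 in the P0 knockouts. Tet3 lay above all E18.5 knockouts in the 3 P0 knockouts, at 0.43 (SE 0.16, edgeR adjusted p = 0.316). The model called 0% of 18379 genes in controls (4254 at an unadjusted p under 0.05) and 0.00544% in knockouts. DESeq2 called 1503 genes in controls and 293 in knockouts, none of them among the 9. Samples of the 2 ages did not overlap for 2 of the 9 genes in controls, against 27.7% of all genes, and for 2 of the 9 in knockouts (Tet2 and Tet3), against 19.4%. Age and library preparation cannot be told apart from the labels.

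Over the 12 Figla-set samples, the genes whose log2 CPM followed each called gene most closely were sought among 18370 genes. For Dnmt1 they were Gen1, Dlgap5 and Bard1 (Pearson r of 0.947, 0.946 and 0.936). For Uhrf1 they were Lpcat1, Rpa1 and Tubb4b (r of 0.979, 0.970 and 0.949), and for Zfp57 Malt1, Mrpl24 and Cldn6 (r of 0.959, 0.941 and 0.929). These are descriptions over samples that share 2 ages and 2 genotypes, and whose E18.5 samples split by library set. Zfp57 stood at 143 CPM in E18.5 knockout 1-2, above every other Figla-set sample (at most 106, in P0 control 3). The part of that sample in the correlations was not tested.

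The members are expressed by several cell types of the ovary, and in whole-tissue RNA fewer cells of a type and less RNA per cell cannot be told apart. Some markers of germ cells and of dividing cells were lower at P0, where Dnmt1 and Zfp57 were lower in both sets and Dnmt3a was higher in the Lhx8 set. In the Figla set, 4 of 8 germ cell markers were lower (Ddx4, Dazl, Sycp3 and Hormad1), with a list median of -0.41 and a range of -0.88 to 0.24. The summed level of the 8 was 1080 to 1411 CPM in controls and 986 to 996 in knockouts, and no marker was at 0. Of 8 markers of dividing cells, 3 were lower (Mcm2, Bub1 and Birc5), with a median of -0.57 (range -1.27 to 0.12) and sums of 692 to 1059 against 566 to 690 CPM. In the Lhx8 set 2 of 8 germ cell markers (Ddx4 and Sycp3) and 1 of 8 markers of dividing cells (Birc5) were lower, with sums of 1288 to 1602 against 1175 to 1423 and of 878 to 950 against 617 to 739 CPM. The Lhx8-set log2 fold changes ran from -0.96 to 0.45 for the germ cell markers (median -0.18) and from -1.26 to 0.35 for those of dividing cells (median -0.16). Sycp3, lower in both sets, shares 52.2% of its exon bases with other genes. Of all genes tested, 10.9% were lower in the Figla set and 7.29% in the Lhx8 set. The part of these markers in the results for Dnmt1, Uhrf1, Zfp57 and Dnmt3a was not tested.

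Some markers of somatic cells were higher in the Figla-null ovaries at P0: 5 of 6 for stroma (median 0.49), 4 of 5 for endothelium (0.61), 2 of 8 for pregranulosa cells (0.40) and 1 of 5 for macrophages (0.46). None of 5 erythroid, 4 surface epithelium and 4 Sertoli cell markers passed. In the Lhx8 set 2 of 6 stromal, 2 of 7 pregranulosa, 1 of 4 surface epithelium and 1 of 3 Sertoli cell markers tested were higher, and none of the 5 endothelial, 5 macrophage and 3 erythroid markers tested passed. Over all genes tested at P0, 5.12% were higher in the Figla set and 3.06% in the Lhx8 set. At E18.5 none of the markers passed the adjusted test. All 5 erythroid markers had an unadjusted p under 0.05 there, with a median log2 fold change of 1.29 and sums of 387 to 534 CPM in controls against 488, 1755 and 2246 in knockouts 1-2, 3 and 4. The part of these markers in the results was not tested either.

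Among 40 partner genes of the methylation and imprinting machinery, 6 of 38 tested changed in Figla-null ovaries at P0 (4 lower, 2 higher), 7 of 37 in Lhx8-null ovaries (5 lower, 2 higher) and 0 of 38 at E18.5 by edgeR (5 at an unadjusted p under 0.05). Of all genes tested, the same comparisons called 16%, 10.4% and 0.0062%. The partners' medians were 0.05, -0.01 and 0.03. The most strongly reduced in both P0 sets were Kdm1b, the histone H3K4 demethylase that maternal imprints require, and Dppa3 (Stella), which guards the maternal genome against loss of methylation and keeps Uhrf1 in check.

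Kdm1b stood at 511, 644 and 806 CPM in Figla-set P0 controls and at 50.0, 57.0 and 52.7 in knockouts, a log2 fold change of -3.61 (SE 0.17, edgeR adjusted p = 6.14e-07). Lhx8-set samples stood at 115, 154 and 125 in controls and at 14.0, 26.2 and 18.9 in knockouts, with -2.74 (SE 0.23, edgeR adjusted p = 7.36e-05). The groups were far apart in both. Dppa3 fell from 107, 148 and 246 CPM in Figla-set controls to 3.65, 3.34 and 4.70 in knockouts (-5.42, SE 0.32, edgeR adjusted p = 3.07e-06). Across the Lhx8 set it went from 349, 540 and 458 to 39.5, 93.7 and 69.3 CPM, a log2 fold change of -2.73 (SE 0.29, edgeR adjusted p = 0.000325).

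At E18.5 both partners were lower in the Figla-null samples than in controls 1-2 and 4. Kdm1b stood at 254, 51.7 and 386 CPM in controls and at 44.4, 51.8 and 49.4 in knockouts, and Dppa3 at 46.6, 0.687 and 68.8 against 0.682, 0 and 2.65. Control 3, the library low in Figla and Nobox, lay among the knockouts in both. With it neither passed edgeR's test (log2 fold changes of -2.22 and -5.17, adjusted p of 0.984 and 1.00), and without it both did (89 genes called in all, -2.69 and -5.74, adjusted p of 0.00891 and 0.0433). Dnmt1, Uhrf1 and Zfp57 were not called without it either, at -0.02, 0.01 and -0.11.

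Usp7, a deubiquitinase that stabilises Dnmt1 and Uhrf1, was lower in both P0 sets. It stood at 359, 363 and 550 CPM in Figla-set controls against 204, 226 and 257 in knockouts, and at 347, 377 and 325 against 179, 209 and 172 in the Lhx8 set. The log2 fold changes were -0.88 (SE 0.16, edgeR adjusted p = 0.00487) and -0.91 (SE 0.13, edgeR adjusted p = 0.00219), and neither pair of groups overlapped. At E18.5 it was -0.06 (SE 0.18). The list of 5 maintenance partners also holds the chromatin remodeller Hells, the replication clamp Pcna, Cdca7 and Uhrf2, the paralog of Uhrf1. Usp7 alone passed in the Figla set, and Usp7 and Uhrf2 in the Lhx8 set. Uhrf2 was higher there, at 45.8, 48.3 and 51.4 CPM in controls and 79.2, 70.0 and 67.5 in knockouts (0.58, SE 0.13, edgeR adjusted p = 0.0218).

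Gadd45b, a stress-response gene implicated in active demethylation, was higher in both. Figla-set P0 controls stood at 12.1, 12.7 and 14.2 CPM and knockouts at 19.1, 23.4 and 23.7 (0.76, SE 0.15, edgeR adjusted p = 0.00774). Lhx8-set controls stood at 4.81, 6.77 and 6.07 and knockouts at 21.1, 18.9 and 20.2 (1.77, SE 0.21, edgeR adjusted p = 0.000683). At E18.5 it followed the library sets rather than the genotypes, with 104 and 220 CPM in control and knockout 1-2 and 9.11 to 16.2 in samples 3 and 4. Without P0 knockout 3 its Figla-set adjusted p was 0.0552.

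The other calls among the partners were less firm. In the Figla set Ctcfl, a testis-associated paralog of Ctcf, was higher (1.41, edgeR adjusted p = 0.0317) at 1.17 to 6.94 CPM, and Cbx1, which encodes heterochromatin protein 1 beta, was lower (-0.33, edgeR adjusted p = 0.0438). Ctcfl lost its call without knockout 1 or 2 or control 2 or 3 (adjusted p of 0.0660 to 0.119), and Cbx1 without any 1 of the 6 samples (0.0671 to 0.155). In the Lhx8 set Mbd3, a subunit of the NuRD complex, was lower (-0.51, edgeR adjusted p = 0.0478), as was the pluripotency-associated zinc finger gene Zfp42 (-1.41, edgeR adjusted p = 0.00979). Mbd3 lost its call without knockout 1 or 2 or any 1 control (0.0712 to 0.167), Zfp42 without control 1 or 2 (0.0541 and 0.0602), and Uhrf2 without any 1 control (0.0619 to 0.106). In neither set did any of the other partners pass, including Zfp445 and Setdb1, which act with Trim28 at imprints, and Tdg, the glycosylase that removes oxidised bases.

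**Figure D4:**
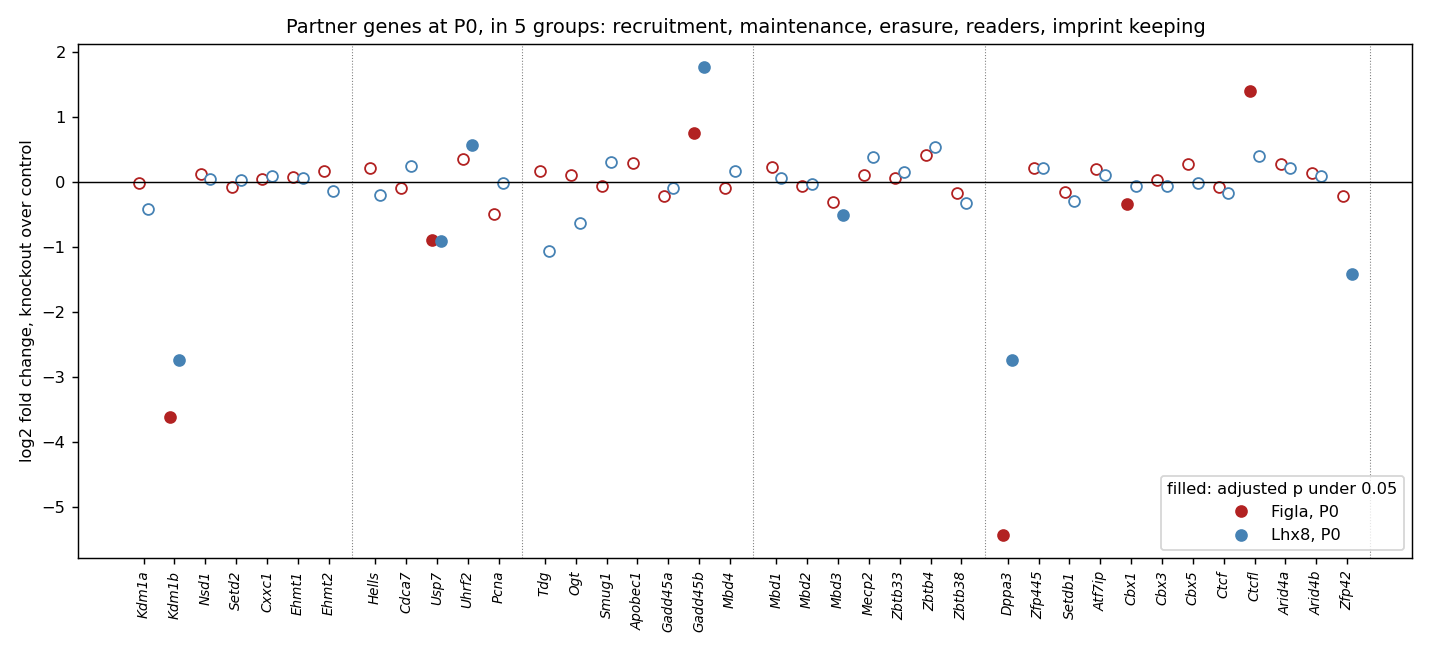
Log2 fold change at P0 (y axis) of the tested partner genes (x axis, in 5 groups by role) in the Figla set (red) and Lhx8 set (blue); filled points passed edgeR's adjusted test. Kdm1b (-3.61 and -2.74) and Dppa3 (-5.42 and -2.73) lie far below the rest, and most other points lie near 0. Genes not tested in either set are not drawn, and Apobec1 was tested in the Figla set only.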

How the data were processed

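Messenger RNA was selected from total ovary RNA; the Figla libraries were made with a Nextera kit, which keeps no strand, and the Lhx8 libraries with the QuantSeq 3' kit, per the labels' protocols. The submitters' processing notes name cutadapt for trimming and HISAT2 for alignment, with GRCm38.p5 as the genome (tool versions not given in the sources used here). The deposited counts are raw reads per gene: per the file headers, featureCounts 1.6.0 assigned reads to GENCODE M12 genes without regard to strand. Reads without molecular identifiers are not independent molecules, so floors cover counting error only. Gene symbols matched 49326 of 49585 identifiers.

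From these, counts were tested with edgeR 4.0.16 in R 4.3.3 (filterByExpr with minimum count 10 and minimum total 15, TMM scaling, quasi-likelihood test, Benjamini-Hochberg over all genes tested, threshold 0.05), after the fit of each knockout comparison was tested on simulated data. Each knockout was compared with its own controls, and the age contrasts used 1 model of the Figla set, which was not tested on simulated data. CPM are on TMM-scaled sizes. The near-identical E18.5 pairs (chi-square per degree of freedom of 1.12 and 1.32, against 6.62 to 62.3 for the 22 other pairs, over genes with at least 50 counts) were summed. Figla replicate numbers follow the order of deposit and were not used to pair samples. The 10 genes, the partner and marker lists and the groups of libraries were chosen with earlier results of these data known. Named genes were the 10 members, any partner that passed a knockout comparison, and the 3 genes most correlated with each called member of the Figla set. One partner gene, which was not tested at P0, is not reported here. Alternatives were DESeq2 1.42.0, RLE scaling, no filter on low counts, each sample left out, 1 model of all Figla samples, each E18.5 library as its own sample, grouping by title, libraries with agreeing labels only and a replicate block; 2 subsets of the E18.5 samples and a term for the E18.5 library set were chosen after seeing the data.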

Additional observations from a re-analysis of the deposited data

Results flagged for a closer look

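Tet2 had opposite signs in the P0 comparisons: each Figla-null sample lay below the mean of its controls, at log2 ratios of -0.0036, -0.0048 and -0.16 with a mean of -0.056, while each Lhx8-null sample lay above its control mean, by 0.20 to 0.57. Figla-set control 1, at 136 CPM, raised the control mean: knockouts 1 and 2, both at 112, lay above controls 2 and 3 at 104 and 97.7. With 1 sample left out the Figla-set log2 fold change ran from -0.13 to 0.11, the highest without control 1. The difference between the sets was not tested, since they used different library kits, and neither effect passed its own test.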

How the results depend on the processing

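Of the single-gene values recomputed under the alternatives, 1668 kept their side of the threshold, 140 of them uncalled values whose sign changed, 60 lost the call, 32 gained it and 18 reversed. Grouping by title only exchanges the names of the Lhx8-set groups, so each sign there turns and each size is kept. It gave 0.54 for Dnmt1, -0.50 for Dnmt3a, 1.46 for Zfp57, 2.74 for Kdm1b, 0.91 for Usp7, -0.58 for Uhrf2, -1.77 for Gadd45b, 0.51 for Mbd3, 2.73 for Dppa3 and 1.41 for Zfp42. Grouping by title also gave 0.14 for Uhrf1, 0.15 for Usp7 and -0.33 for Ctcfl in the Figla set at P0, and for Gadd45b -3.84 at E18.5 and 4.32 in the change with age. With agreeing labels only, Gadd45b was -2.97 and 3.91 in these, and Zfp57 at E18.5 was -0.96. Agreeing labels left 1 control sample at E18.5, sample 1-2, against knockouts 3 and 4. Genotype and library set cannot be told apart there. By title, both E18.5 samples 1-2 are controls and all E18.5 samples 3 and 4 are knockouts. At E18.5 that grouping therefore compares the library sets, each holding controls and knockouts by library name. For the changes under these groupings the cause was not tested beyond the regrouping itself.

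Genes called at E18.5 numbered 1, against 78 by DESeq2, 229 with no filter, 53 in 1 model, 34 with each library its own sample, 1093 by title and 1082 with agreeing labels, the last 2 with 1 of the 9 genes each (Tet3 and Zfp57), 24 with samples 3 and 4 only, 18 without both samples numbered 3, and 0 to 89 with 1 sample left out (89 without control 3). At P0 in the Figla set 2767 became 1363 in 1 model and 0 by title, both with 0 of the 9 genes, 1835 with agreeing labels, and 1423 to 2882 (2 to 4 of the 9) with 1 sample left out. In the Lhx8 set 1582 became 2682 with no filter (4 of the 9), 630 to 1490 (0 to 1 of the 9) with 1 sample left out, and 931 with a replicate block (0 of the 9; Dnmt1 -0.53, adjusted p = 0.0922). Same-numbered Lhx8 samples correlated by -0.15, 0.047 and 0.038, and differently numbered ones by -0.17 to 0.13. With so few samples, these values cannot decide whether the numbers pair them. DESeq2 called 4 of the 9 in the Lhx8 set.

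For the change of the Figla effect with age, 0 became 3 by DESeq2, 63 with no filter, 208 by title, 148 with agreeing labels and 1 with samples 3 and 4 only, and 0 with any 1 sample left out. For age in controls, 0 became 1503 by DESeq2, 1252 with no filter (1 of the 9, Uhrf1), 1490 with each library its own sample, 1426 by title (1 of the 9, Tet3), 1231 with agreeing labels, 337 with samples 3 and 4 only, and 0 to 556 with 1 sample left out. For age in knockouts, 1 became 293 by DESeq2, 0 by RLE scaling, 530 with no filter (1 of the 9, Zfp57), 16 with each library its own sample, 285 with agreeing labels, 206 with samples 3 and 4 only, 0 without both samples numbered 3, and 0 to 150 with 1 sample left out. RLE scaling moved the median gene by less than 0.1 in each comparison. No value in the Lhx8 set could be computed from agreeing labels. Dnmt3l had 0 to 2 counts in a sample. Zfp57 had 12 to 64 in the Lhx8 libraries, whose totals lie within the Figla range.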
